A study of Mus musculus with 10 samples.

Results

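Ubiquitin shuttle factors and the enzymes that work beside RAD23 were followed as a set of 10 genes in mouse embryonic stem cells. The genes were Ubqln1, Ubqln2, Ubqln4, Ddi2, Ngly1, Atxn3, Ube4b, Vcp, Nploc4 and Stub1. They were taken by symbol, for what their proteins are known to do; the rule uses no measured value, but the set was drawn up with earlier results of these data known. They are 10 of the 36586 genes listed in the expression tables, and all 10 stood at 1 RPKM (reads per kilobase of transcript, scaled to library size) or more in each of the 4 RNA libraries.

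Shuttle factors carry ubiquitylated proteins to the proteasome: a ubiquitin-like domain docks on the proteasome and a ubiquitin-associated domain holds the ubiquitin chain. RAD23B is such a factor. It is also the partner of XPC in the complex that recognises damaged DNA, and that complex has been described as a transcriptional coactivator in embryonic stem cells. Ubiquilins and DDI2 are built along similar lines, whereas the ATPase VCP pulls ubiquitylated proteins out of membranes and complexes before a shuttle takes them over.

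The study set RAD23B occupancy on chromatin beside gene expression after loss of RAD23B and XPC. The 6 chromatin immunoprecipitation (ChIP) libraries were made with guinea pig antibodies: 2 against RAD23B and 2 with IgG from wild-type cells of the murine D3 line, and 1 of each from Xpc-/- murine embryonic stem cells. The 4 poly-A RNA libraries came from another line, JM8.N4, with 1 library per group: wild type, Rad23b-/-, and Rad23b-/- with Xpc knocked down by hairpin 1 (knockdown 1) or by hairpin 2 (knockdown 2). Both knockdowns are also labelled Rad23b-/-, so Xpc knockdown alone was not measured, and occupancy and expression were never measured in the same line.

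The targeted genes were lower in the libraries labelled for them, but Rad23b RNA was not absent from any library labelled Rad23b-null. Rad23b stood at 229 RPKM in wild type, 43.9 in the Rad23b-null library, 35.8 in knockdown 1 and 52.5 in knockdown 2, which leaves 19.1%, 16.1% and 23.3% of the wild-type level. The tables do not show which part of the gene these reads cover. Xpc stood at 8.73 and 8.34 RPKM in the wild-type and Rad23b-null libraries and at 0.915 and 0.895 in the knockdowns. Stem cell markers were high in all 4 libraries (Pou5f1 between 1152 and 1603 RPKM), but 3 of 6, Klf4, Nanog and Esrrb, were at least 2-fold lower than wild type in each of the other libraries. The summed level of the 6 was 2584 RPKM in wild type and 1591, 1995 and 1905 RPKM in the Rad23b-null, knockdown 1 and knockdown 2 libraries. The 5 fibroblast markers summed to between 1.87 and 2.60 RPKM and the 4 primitive endoderm markers to between 4.64 and 5.59. Among the fibroblast markers, Col3a1 was listed at 0.0709 RPKM in wild type and at 0 in the 3 mutants. Thy1 went the other way, at 0.759 RPKM in wild type and 1.60, 1.20 and 1.33 in the mutants. Pdgfrb was also higher in each mutant library, Col1a2 was lower, and Col1a1 lay on either side of wild type. The primitive endoderm sum also hides opposite directions. Gata4 stood at 1.26 RPKM in wild type and 3.02, 2.70 and 2.67 in the mutants, and Dab2 at 2.16 and 1.22, 0.874 and 1.21. Sox17 and Gata6 stayed under 1 RPKM in each library. The 3 trophectoderm markers summed to between 10.6 and 14.6 RPKM, of which Eomes gave most (14.2 in wild type and 9.36, 12.2 and 8.77 in the mutants). The other trophectoderm markers were low but higher in the mutants, Cdx2 at 0.0991 RPKM in wild type and 0.649, 0.596 and 0.751 in the mutants and Gata3 at 0.297 and 0.697, 1.36 and 1.05. The p-values in the authors' deposited table were 0.022, 0.017 and 0.006 for Cdx2 and 0.547, 0.371 and 0.452 for Gata3. Cdx2 stayed under 1 RPKM in each library. The 2 neural markers summed to between 6.09 and 9.11 and the 2 mesoderm markers to between 0.951 and 1.48. The part of these marker differences in the values below was not tested. In bulk RNA, fewer cells of a type and less RNA per cell cannot be told apart.

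With 1 RNA library per group, no difference in expression has a replicate check and none was tested. The 3 comparisons also share the wild-type library, so a value that is odd in that library moves all 3 in 1 direction. Each difference is given as log2 of (mutant RPKM + 1) over (wild-type RPKM + 1), and a gene was counted as different at 2-fold or more. As a gauge of differences between single libraries, the knockdowns differed from each other by less than 0.22 on the log2 scale in the middle 68% of 15152 genes. For 8 of the 10 members the difference between knockdowns was inside that range, the exceptions being Nploc4 and Stub1.

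Most of the set stood close to wild type. In the Rad23b-null library 1 member, Stub1, was at least 2-fold apart from wild type, where 9.36% of all 15040 genes were. Knockdown 1 gave the same count, 1 member, against 7.35% of genes. Knockdown 2 gave 2 members, Stub1 and Nploc4, against 7.53%. The median log2 ratio of the members was -0.15, -0.18 and -0.21 in the Rad23b-null, knockdown 1 and knockdown 2 comparisons, and that of all genes was -0.16, -0.14 and -0.14. Members lower than wild type numbered 6, 7 and 7, beside 62.9%, 63.8% and 62.7% of all genes, so the direction of the set was that of the tables as a whole. Measured from the median of all genes in place of 0, 5, 5 and 6 members were lower: Ubqln1, Ubqln4, Ube4b, Vcp and Nploc4 each time and Atxn3 in knockdown 2, while Ddi2 lay above that median each time. At a limit of 1.5-fold, 3 members were apart from wild type in each comparison, beside 27.3%, 21.5% and 23.3% of all genes. No member had a p under 0.05 in the authors' deposited table, where 2.77%, 2.76% and 2.74% of genes did.

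**Figure D1:**
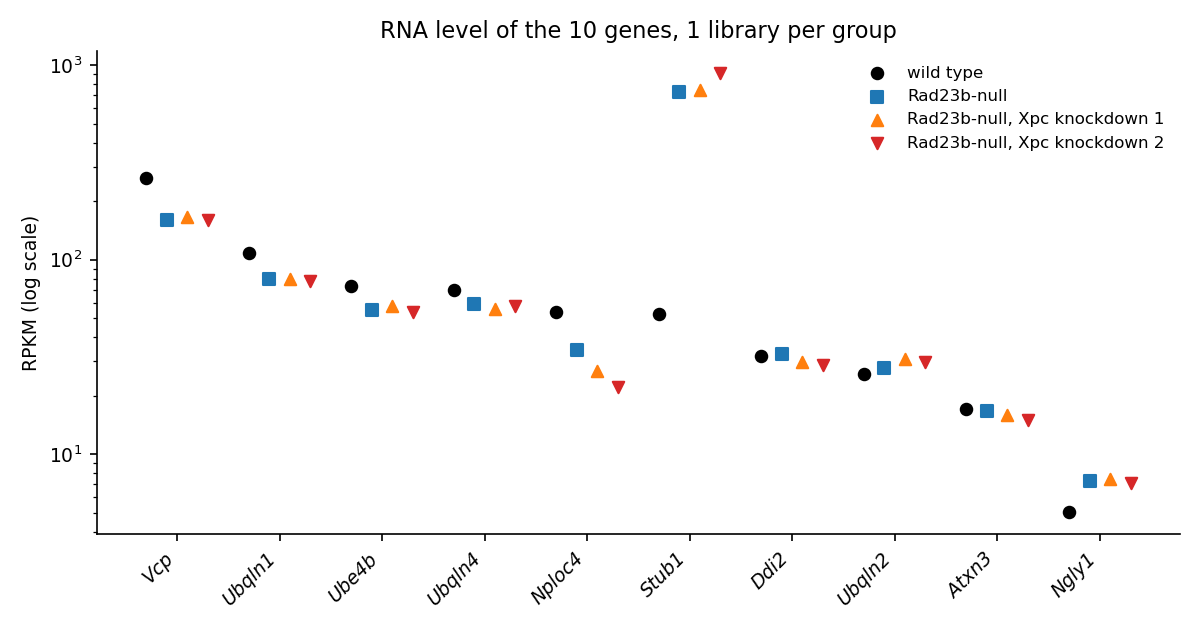
RPKM of the 10 genes (log scale) in the 4 RNA libraries, 1 point per library, ordered by the wild-type level. Stub1 lies at 52.6 in wild type and between 731 and 915 in the other libraries. Nploc4 goes from 53.8 down to 22.3 and Vcp from 262 to between 159 and 167, and the points of the other genes lie closer together.

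**Figure D2:**
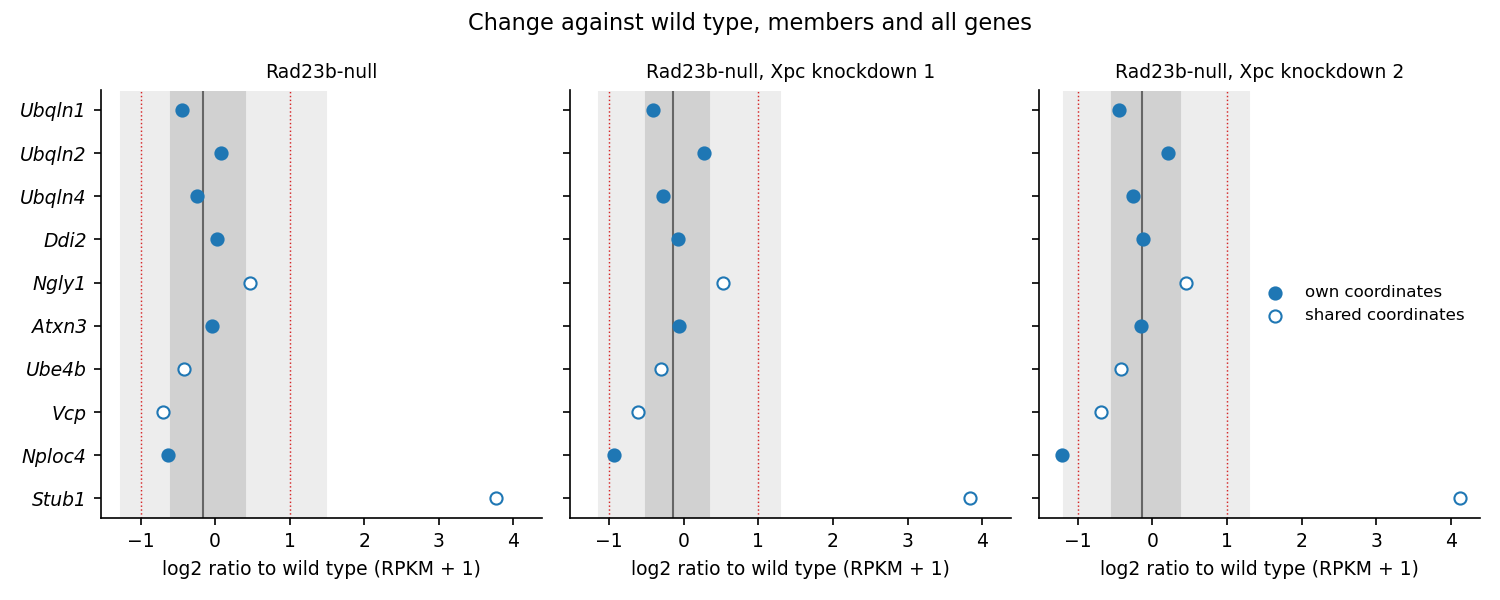
Log2 ratio to wild type of RPKM + 1 for each member in the 3 comparisons, which share the wild-type library. The dark band holds the middle 68% of all genes, the light band the middle 95%, the grey line is their median and the dotted lines mark 2-fold; Stub1 lies beyond the light band in all 3 panels.

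RAD23B regions were described from the authors' lists, which are headed as RAD23B against IgG; the headings of the Xpc-null list are in doubt, as given with its values. A region was assigned to a gene when it lay in the listed locus or within 5 kb of it. Of the 10 members, 9 had a region shared by both wild-type replicates (overlapping by at least 1 base), and the exception was Ubqln2. Such a region was present at 83.5% of all genes at 1 RPKM or more and at 88.9% of the protein-coding ones, so the members' share was near the background. Within 1 kb of the listed start, 7 of 10 had a shared region, beside 63.3% of all genes. Taken singly, replicate 1 had a region at 10 members (88.7% of genes) and at 9 starts (71%), and replicate 2 at 9 members (83.8%) and 7 starts (63.6%). The members' loci had a median length of 42.67 kb, against 28.15 kb for protein-coding genes. In all, 52 regions of replicate 1 and 37 of replicate 2 fell to the members, 36 of them shared, and the large Stub1 locus held 23 and 17 of these.

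For the 4 members listed on coordinates that they share with other genes (Ngly1, Ube4b, Vcp and Stub1), the start is that of the merged locus and need not be the gene's own. The sources do not say whether such a gene's RPKM is its own or rests on the merged locus. Coordinates of loci and regions are in mm9. Exons and introns were not analysed here, since no mm9 annotation beyond the listed loci was used.

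The ubiquilins are shuttle factors of the RAD23 type, and Ubqln1 was the most abundant of them per length. Ubqln1 (chr13:58277523-58316997, minus strand) stood at 108 RPKM in wild type, 79.3 in Rad23b-null, 79.2 in knockdown 1 and 78.1 in knockdown 2. The 3 mutant libraries lay close together and below wild type, at log2 ratios of -0.45, -0.41 and -0.44. The p-values for it in the authors' deposited table were 0.371, 0.342 and 0.331. RAD23B had a single region at this gene, over the listed start, at chr13:58316647-58317790 in replicate 1 with 397 RAD23B and 197 IgG reads. The authors' fold there was 1.92 in replicate 1 and 1.94 in replicate 2, which 52.9% and 40.5% of the regions in the respective lists lay below.

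The 250 bases before the RefSeq start of Ubqln1 are shown because RAD23B was listed over its start in both replicates and none of 8 promoter motifs searched was found there (GRCm38.p6, chr13:58215654-58215903, minus strand, all in lower case because no motif matched). The share of all promoters with none of the 8 was not counted, and whether regions go with these motifs was not tested. The RefSeq build differs from that of the regions, and the sequence was not placed on mm9.
Ubqln1: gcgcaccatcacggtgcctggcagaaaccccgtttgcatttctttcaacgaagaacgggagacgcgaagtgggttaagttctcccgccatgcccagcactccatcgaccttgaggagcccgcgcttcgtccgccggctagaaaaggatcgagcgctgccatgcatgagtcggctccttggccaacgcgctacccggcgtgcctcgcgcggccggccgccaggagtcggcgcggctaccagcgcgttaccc

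The motifs were the GC box GGGCGG, the CCAAT box, the ETS-type element CCGGAAGT, the E-box CACGTG, the NRF-1 palindrome, the TATA box TATAAA, the antioxidant response element core TGACNNNGC and the octamer ATGCAAAT, each on both strands. Of 32851 RefSeq promoters of the same length, 32.7% held the GC box, 33.8% CCAAT, 2.88% the ETS-type element, 6.02% the E-box, 0.782% the NRF-1 palindrome, 12.4% TATAAA, 10.2% TGACNNNGC and 1.6% the octamer. RefSeq sequences were found for 9 of the 10 members, and of these 6 held the GC box, 3 CCAAT, 2 the E-box and 0 the octamer. All 9 were rich in CpG, with between 15 and 31 CpG dinucleotides where the median promoter has 6, and with a GC content between 54.8% and 71.6% where the median is 52.4%. The NRF-1 of the palindrome is nuclear respiratory factor 1, a different protein from the NRF1 that is encoded by Nfe2l1. A match is a run of letters and does not show a bound factor.

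Ubqln2, an X-linked gene with a short locus of 3.306 kb (chrX:149932774-149936080, plus strand), stood at 26.0 RPKM in wild type and at 27.6, 30.8 and 29.6 in Rad23b-null, knockdown 1 and knockdown 2. All 3 mutant libraries were slightly above wild type (log2 ratios 0.09, 0.27 and 0.21), the opposite side from Ubqln1. Its only region lay over the start (chrX:149932351-149932840) with 125 RAD23B and 38 IgG reads and a fold of 3.08. That fold was above those of 89.4% of regions in replicate 1, but the region is not in the list of replicate 2, which was shallower (62.53 M reads against 109.3 M).

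Ubqln4, a ubiquilin known to bind other ubiquilins and mislocalised membrane proteins, stood at 70.1 RPKM in wild type and at 58.9, 55.9 and 57.6 in the mutants. The mutant values were lower than wild type by 0.25, 0.28 and 0.26 on the log2 scale, closer to each other than to wild type. At its start (chr3:88357637-88373647, plus strand) RAD23B regions were weak, with folds of 1.78 and 1.54 in the replicates. The stronger ones lay past the end of the locus, outside any listed gene. At chr3:88375524-88376419 there were 402 RAD23B and 105 IgG reads (fold 3.63 in replicate 1 and 3.84 in replicate 2), and at chr3:88376637-88377242 the folds were 3.08 and 3.84. The nearest listed start is that of Gm10704, 4644 and 3821 bp from these regions, so their assignment to Ubqln4 rests on distance alone.

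Ddi2 encodes a shuttle factor that is also a protease, known for cutting the transcription factor NRF1 so that it can raise proteasome genes. Its RNA was among the steadiest of the set, at 32.1 RPKM in wild type and 32.9, 29.6 and 28.8 in the mutants (log2 ratios 0.03, -0.08 and -0.13), on either side of wild type. In RefSeq, Rsc1a1 overlaps Ddi2 by 2154 bp, and reads from genes that overlap may not be told apart. Ddi2 carried the strongest RAD23B region of the set. It lay inside the locus, 44.2 kb from the start and near the far end of the gene (chr4:141234837-141235440; locus chr4:141233463-141279334, minus strand). Replicate 1 had 307 RAD23B and 57 IgG reads there (fold 5.07) and replicate 2 had 133 and 23 (fold 5.59), above 99.0% and 98.5% of the regions of each list. The region over the start was weaker, with folds of 2.06 and 1.72.

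**Figure D3:**
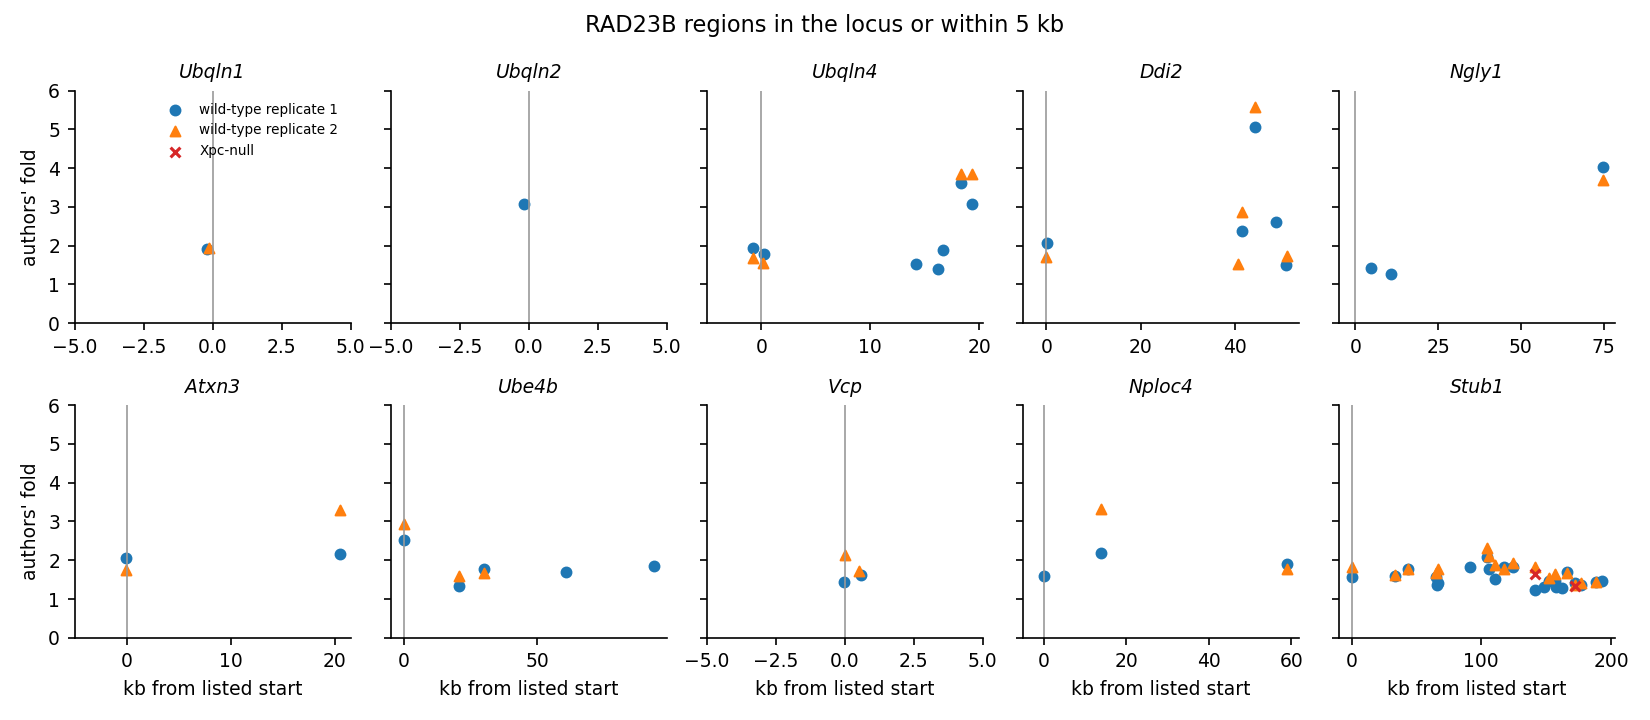
Authors' fold of each RAD23B region against the distance of its midpoint from the listed start in kb, 1 panel per gene and 1 mark per region, with positive distances running into the gene. Folds at listed starts lie between 1.44 and 3.08, and the highest values belong to regions 44.2 kb into Ddi2, 74.7 kb from the listed Ngly1 start and past the Ubqln4 locus.

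Ngly1, Atxn3 and Ube4b encode partners that bind RAD23 proteins. NGLY1 strips N-linked sugars from misfolded glycoproteins on their way to the proteasome, and it was the least abundant member. Ngly1 stood at 5.02 RPKM in wild type and at 7.29, 7.48 and 7.07 in Rad23b-null, knockdown 1 and knockdown 2. The 3 mutant values were close together and above wild type, at log2 ratios of 0.46, 0.53 and 0.44, and the p-values in the authors' deposited table were 0.613, 0.531 and 0.438. Ngly1 shares its listed coordinates (chr14:17071169-17144440, plus strand) with Oxsm, a mitochondrial fatty acid synthesis gene on the opposite strand. Oxsm stood at 5.02, 6.71, 5.65 and 5.24 RPKM in the same order. Oxsm was highest in Rad23b-null and Ngly1 in knockdown 1, and the knockdown values of Oxsm were nearer to wild type. No region lay within 1 kb of the listed Ngly1 start, which is the edge of the merged locus of 73.271 kb. In RefSeq (GRCm38.p6) Ngly1 is 62613 bp long, so its own start may lie inside that locus. Whether a region listed inside the locus lies at that start was not determined. Replicate 1 alone listed weak regions in the locus, 4.68 and 10.7 kb from the listed start, with folds of 1.43 and 1.27. A strong region stood past the end of the locus (chr14:17145531-17146188, 325 RAD23B and 76 IgG reads, folds 4.04 and 3.69). It lay 1091 bp from the edge of the merged locus, which is listed as the start of Oxsm and need not be its own.

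Atxn3 encodes a deubiquitylating enzyme that trims ubiquitin chains and binds both RAD23 and VCP. It stood at 17.1 RPKM in wild type and 16.6, 15.9 and 15.0 in the mutants, with log2 ratios of -0.04, -0.07 and -0.16. The 4 libraries lay close together, and relative to the median of all genes Atxn3 was slightly high in Rad23b-null and knockdown 1. RAD23B was listed over the start (chr12:103157110-103196456, minus strand) with folds of 2.06 and 1.76. A region inside the gene, 20.5 kb from the start, had folds of 2.15 and 3.30, from 62 RAD23B and 27 IgG reads in replicate 1 and 55 and 16 in replicate 2. The counts there are low, so the order of the folds in the replicates carries little weight.

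UBE4B lengthens ubiquitin chains and is the mammalian relative of yeast Ufd2, a docking partner of Rad23. Ube4b stood at 73.6 RPKM in wild type and at 55.0, 57.5 and 53.7 in the mutants, with log2 ratios of -0.41, -0.31 and -0.42. The mutant libraries lay close to each other and below wild type. Its listed coordinates (chr4:148702524-148800858, minus strand) also carry 3 antisense genes. Of these only A930028C08Rik reached 1 RPKM, at 8.60, 6.35, 7.44 and 6.33 in the same order. The strand of the reads was not used as far as the sources say, so part of either value may belong to the other gene. Of the 7 members with a start region in both replicates, Ube4b had the highest fold in each, 2.51 (328 RAD23B and 124 IgG reads) and 2.92.

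VCP is the ATPase that pulls ubiquitylated proteins apart from their surroundings, and Vcp was the most abundant member. It stood at 262 RPKM in wild type, above 96.3% of genes at 1 RPKM or more, and at 161, 167 and 159 RPKM in Rad23b-null, knockdown 1 and knockdown 2. The mutants lay close together and were all lower than wild type, at 61.2%, 65.2% and 61.7% of it (log2 ratios -0.71, -0.61 and -0.69). The p-values for Vcp in the authors' deposited table were 0.763, 0.689 and 0.718. Vcp shares coordinates (chr4:42982817-43013379, minus strand) with 1700022I11Rik, which stayed under 1 RPKM in each library. Reads can also be split with the near copy Vcp-rs, a listed pseudogene at 74.1 RPKM in wild type and 47.7, 48.4 and 46.8 in the mutants. Both genes were lower in the mutants, and how the counting divided their reads was not tested.

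Vcp and Nploc4 were the members at least 1.5-fold lower in all 3 comparisons, 2 of 10 each time beside 16.4%, 12.4% and 13.7% of all genes. RAD23B was listed over the Vcp start with folds of 1.44 and 2.13 and just inside it with 1.62 and 1.72. The sequence before the RefSeq start of Vcp is shown because it alone, among members with a RefSeq sequence, held TATAAA and TGACNNNGC. It also holds 4 CCAAT boxes and, like those of Ubqln1 and Nploc4, no GC box (GRCm38.p6, chr4:43000508-43000757, minus strand). Matches on either strand are in capitals, with a CCAAT and a TGACNNNGC directly adjoining in 1 run.
Vcp: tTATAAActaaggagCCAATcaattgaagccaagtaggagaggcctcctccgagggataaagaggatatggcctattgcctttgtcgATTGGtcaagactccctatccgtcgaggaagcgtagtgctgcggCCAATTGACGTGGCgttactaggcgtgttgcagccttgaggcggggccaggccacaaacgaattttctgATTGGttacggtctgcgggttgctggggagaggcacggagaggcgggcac

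NPLOC4 (NPL4) forms the adaptor through which VCP recognises ubiquitin chains together with UFD1. Nploc4 stood at 53.8 RPKM in wild type, 34.4 in Rad23b-null, 26.9 in knockdown 1 and 22.3 in knockdown 2. Each mutant library was lower than wild type, at 64.0%, 51.3% and 42.1% of it, and both knockdowns were lower than Rad23b-null. The log2 ratios were -0.63, -0.94 and -1.21, the knockdowns differed from Rad23b-null by -0.31 and -0.58, and knockdown 2 differed from knockdown 1 by -0.27, a little beyond the middle range of 0.22. Its p-values in the authors' deposited table were 0.571, 0.408 and 0.208. The difference from wild type was the largest of the 6 members with coordinates of their own (chr11:120241683-120299022, minus strand).

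The listed gene next to Nploc4, 2310003H01Rik at 1605 bp, stood at 12.6, 8.20, 5.91 and 7.14 RPKM and was thus also lower in each mutant library, at log2 ratios of -0.56, -0.94 and -0.72. Tspan10, 4922 bp away on the other side, was close to 0. Among 7983 genes with their own coordinates and at least 1 RPKM in every library, the patterns nearest to that of Nploc4, by Euclidean distance over the 3 log2 ratios, were those of Lefty2, SNORA9 and Pole4, at distances of 0.07, 0.10 and 0.12. Lefty2, an inhibitor of Nodal signalling, stood at 146 RPKM in wild type and at 98.6, 74.1 and 61.9 in the mutants. Ufd1l, which encodes UFD1 and was outside that search because it shares its coordinates, stood at 30.7, 25.6, 26.4 and 29.5 RPKM.

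Over the Nploc4 start RAD23B was listed in replicate 1 alone, with a fold of 1.59 (236 RAD23B and 141 IgG reads). Shared regions lay 13.9 kb inside the gene (folds 2.20 and 3.31) and past the end of the locus (1.90 and 1.79). The NRF-1 palindrome, the rarest of the motifs searched, is not named for the NRF1 that DDI2 cuts. The sequence before the RefSeq start is shown because it held this palindrome, in capitals (GRCm38.p6, chr11:120437701-120437950, minus strand).
Nploc4: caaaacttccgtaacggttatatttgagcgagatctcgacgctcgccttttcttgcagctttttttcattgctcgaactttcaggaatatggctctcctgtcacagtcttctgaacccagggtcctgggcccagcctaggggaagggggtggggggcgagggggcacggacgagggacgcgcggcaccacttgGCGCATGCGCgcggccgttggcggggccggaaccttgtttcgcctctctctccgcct

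STUB1 (CHIP) is a chaperone-bound ubiquitin ligase that marks clients of HSP70 and HSP90 for the proteasome, and Stub1 differed from all other members. It stood at 52.6 RPKM in wild type, 731 in Rad23b-null, 747 in knockdown 1 and 915 in knockdown 2. The 3 mutant libraries were far above wild type, at 13.9, 14.6 and 17.7 times its level, and knockdown 2 was the highest of them. The log2 ratios of 3.77, 3.84 and 4.12 ranked 97, 70 and 64 from the highest among all genes in the comparisons. The p-values in the authors' deposited table were 0.861, 0.828 and 0.814, so the authors' test did not call these ratios. Of 8034 genes at 10 RPKM or more in wild type, Stub1 was the sole gene that was at least 8-fold higher in all 3 comparisons, by limits chosen after its value was seen.

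The value of Stub1 has to be read with its locus. The tables list Stub1 on coordinates of 191.226 kb (chr17:25931515-26122741, minus strand) together with 17 other genes, whereas in RefSeq (GRCm38.p6) Stub1 is 2286 bp long. The other 17 genes stood close to wild type: their log2 ratios lay between -0.61 and 0.81 over the 3 comparisons, and 0 of 17 were 2-fold apart. Their summed level was 287 RPKM in wild type and 251, 260 and 260 in the mutants. Metrn, which encodes a secreted factor of the nervous system, was furthest above wild type of those over 10 RPKM, at 15.0 RPKM in wild type and 26.5, 25.2 and 26.6 in the mutants. The lowest p of any gene on these coordinates in the authors' deposited table was 0.667. The genes next to the locus also stood close to wild type: Fam173a stood at 10.1, 9.91, 10.8 and 9.65 RPKM and 1700022N22Rik at 1.27, 1.02, 1.15 and 0.857.

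**Figure D4:**
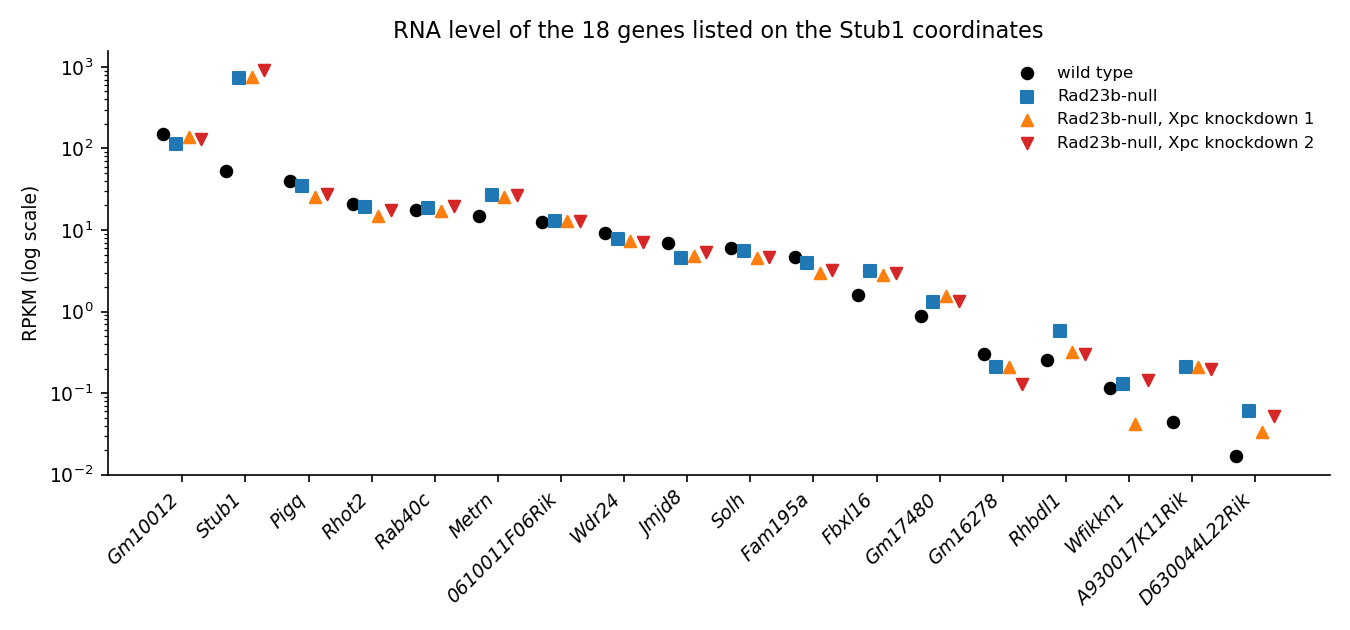
RPKM (log scale) of the 18 genes listed on the coordinates of Stub1 in the 4 RNA libraries, ordered by the wild-type level, with values of 0 not drawn. Stub1 goes from 52.6 to between 731 and 915 while none of the other 17 genes is 2-fold apart from wild type on the RPKM + 1 scale.

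In RefSeq, Stub1 overlaps Jmjd8 by 1210 bp on the opposite strand and contains the microRNA gene Mir3082. Reads of Stub1 and Jmjd8 may not be told apart where they overlap. Jmjd8 was listed at 6.88 RPKM in wild type and 4.54, 4.78 and 5.36 in the mutants. Whether the high Stub1 values are transcripts of Stub1 or a product of how the merged locus was divided among its genes was not tested. Among 7984 genes with their own coordinates, the nearest patterns were those of Gm15055, Gm14136 and Sept1, at distances of 1.95, 2.29 and 2.43, so none came close. Sept1, which encodes a septin, stood at 23.6 RPKM in wild type and at 112, 132 and 175 in the mutants.

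RAD23B regions in the Stub1 locus were numerous but weak. Replicate 1 listed 23 and replicate 2 listed 17 over the locus of 18 genes, with highest folds of 2.08 and 2.31, and the regions over the locus start had folds of 1.56 and 1.81. None can be assigned to Stub1 itself from the listed coordinates. The sequence before the RefSeq start is shown because Stub1 had the largest change of the set (GRCm38.p6, chr17:25832920-25833169, minus strand). Capitals mark GC boxes, an E-box and the ETS-type element CCGGAAGT, which was found in no other member with a RefSeq sequence.
Stub1: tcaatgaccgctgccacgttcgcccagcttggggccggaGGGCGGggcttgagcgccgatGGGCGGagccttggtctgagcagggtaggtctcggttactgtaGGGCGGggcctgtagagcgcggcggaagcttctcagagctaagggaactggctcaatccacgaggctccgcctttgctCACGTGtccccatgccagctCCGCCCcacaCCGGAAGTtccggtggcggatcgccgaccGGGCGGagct

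In the Xpc-null list, which held 828 regions, only the Stub1 locus had any, 2 in number (chr17:25950536-25950845 and chr17:25981198-25981419). That is 1 of 10 members, where 5.66% of all genes at 1 RPKM or more had a region, and 0 of 10 within 1 kb of a start, where 1.95% did. The authors' folds of the pair were 1.33 and 1.64. In that list the fold follows the reads under the IgG heading over those under the RAD23B heading, so the headings may be exchanged or the regions may be of IgG. The 9 members without a region there therefore show absence from that list, at its threshold and in 1 library, and not absence of RAD23B.

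Other genes of the pathway were described from lists of known components. Of 7 genes of the RAD23 and ubiquitin-like shuttle family, 5 were at 1 RPKM or more, while Ubqlnl and Ddi1 were listed at 0. Of the 5, Rad23b alone was 2-fold apart from wild type. Sqstm1, an autophagy receptor for ubiquitylated cargo, stood at 176 RPKM in wild type and at 148, 99.9 and 121 in the mutants (log2 ratios -0.25, -0.78 and -0.52). It shares its coordinates with another gene.

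Of 20 VCP cofactors, 1 was at least 2-fold higher and 1 at least 2-fold lower in each comparison, which is near the 9.36%, 7.35% and 7.53% of all genes at least 2-fold apart. Aspscr1, whose protein takes VCP hexamers apart, stood at 106 RPKM in wild type and 37.5, 41.7 and 33.0 in the mutants (log2 ratios -1.48, -1.29 and -1.63). Ubxn11 stood at 2.42 and at 6.61, 5.99 and 6.00 RPKM, higher by 1.15, 1.06 and 1.05 on the log2 scale. Both share coordinates with another gene. Of the 16 genes of endoplasmic reticulum-associated degradation, the route that brings VCP and NGLY1 their substrates, Herpud1 was the one at least 2-fold apart, in knockdown 2. Herpud1 stood at 14.5 RPKM in wild type and 28.7, 26.9 and 36.5 in the mutants (log2 ratios 0.94, 0.89 and 1.30). It is listed on coordinates that carry 3 genes.

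Of 15 genes of chaperone handover and E4 ligases, the company of STUB1, 14, 12 and 13 were below wild type in the 3 comparisons, beside 62.9%, 63.8% and 62.7% of all genes, and 13, 12 and 12 were below the median of all genes. Hspa8, the constitutive HSP70 that STUB1 binds, stood at 6691 RPKM in wild type and 2894, 3518 and 2917 in the mutants (log2 ratios -1.21, -0.89 and -1.17), opposite in direction to Stub1. All 6 proteasome ubiquitin receptors and deubiquitinases were below wild type in each comparison. So were all 6 genes of the NRF1 axis list (Nfe2l1, Nfe2l2, Psma7, Psmb4, Psmc4 and Psmd12) and all 5 of the ubiquitin list (the ubiquitin genes and Uba1, the activating enzyme). Of these 17 genes, 0 were 2-fold apart. Among all genes, 62.9%, 63.8% and 62.7% were below wild type and 9.36%, 7.35% and 7.53% were at least 2-fold apart. Measured from the median of all genes, 5, 4 and 5 of the 6 proteasome genes, 6, 5 and 6 of the NRF1 axis and 4, 3 and 4 of the ubiquitin list were lower. Their median log2 ratios lay between -0.51 and -0.43, between -0.54 and -0.45, and between -0.30 and -0.18, where the median of all genes was -0.16 to -0.14. Nfe2l1, which encodes NRF1, stood at 94.9 RPKM in wild type and 68.8, 64.8 and 65.0 in the mutants. The 9628 genes with a wild-type level within the members' range had medians of -0.26, -0.22 and -0.23.

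**Figure D5:**
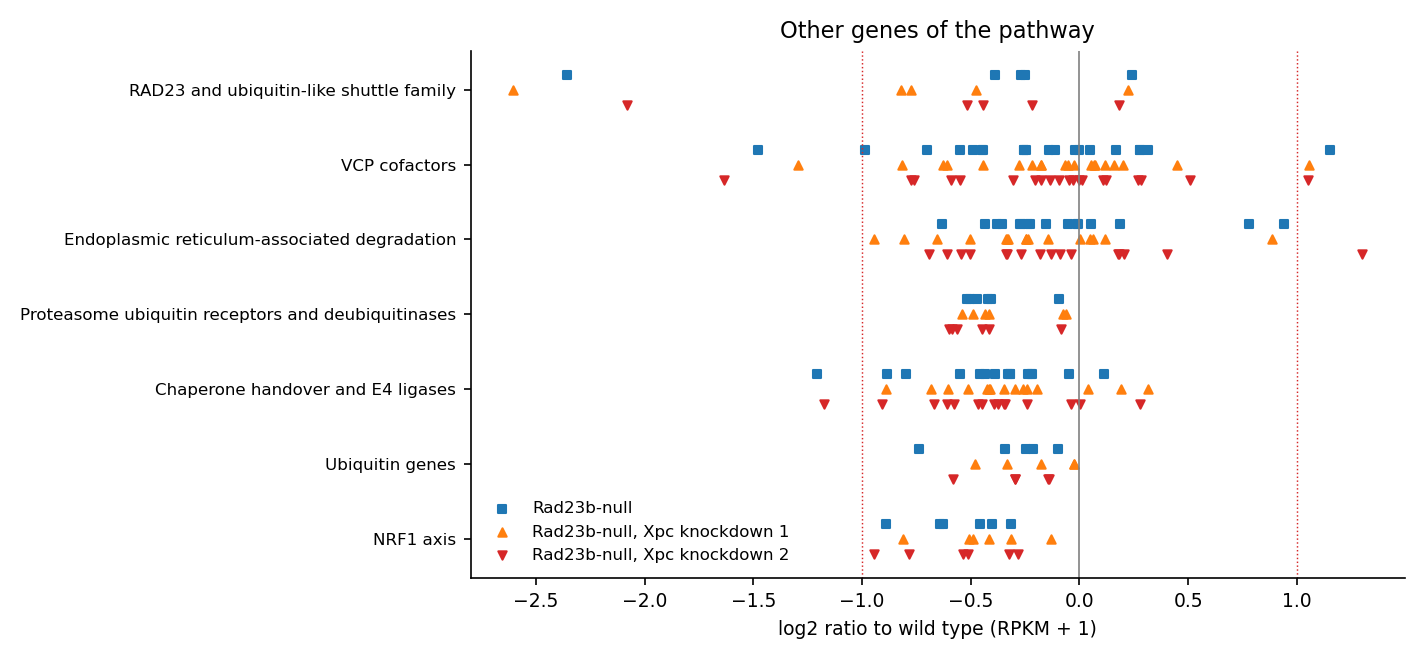
Log2 ratio to wild type of RPKM + 1 for the other genes of the pathway, 1 mark per gene and comparison, for genes at 1 RPKM or more in the wild-type or the Rad23b-null library. Rad23b, Aspscr1 and Hspa8 lie furthest to the left in their lists, and the proteasome receptors, ubiquitin genes and NRF1 axis lie on the left of 0 throughout.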

How the data were processed

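The 10 samples were 6 ChIP-seq and 4 RNA-seq libraries, grouped by their labels. The expression values were deposited as RPKM, and the submitters' processing notes name mm9, TopHat2 2.0.6, Cuffdiff and Cufflinks 2.0.2 for them. Each table of the authors scales 1 mutant library with the wild-type library. Wild-type values of the first table were 1.026 and 1.017 times those of the others: printed wild-type levels come from the Rad23b-null table, and ratios use the wild-type values of their own table. Exactly 1 stands in these columns where other values go far below 1, and it was read as 0. By the steps between low values, depth relative to wild type was 1.29 (Rad23b-null), 1.22 (knockdown 1) and 1.26 (knockdown 2); read totals of the RNA libraries are unknown. The authors also deposited a ratio and a p-value per gene, with no adjustment stated. The 3 region lists, for which Partek is named in the submitters' processing notes, hold counts of RAD23B and IgG reads per region, deposited by the authors with a maximum in RPM, a fold and a p-value. Which aligner and calling settings made them is not given in the sources used here. Headings in the list of replicate 2 name the replicate 1 libraries. The lists were called in 109.3, 62.53 and 145.1 M reads.

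Lines naming no gene (72) were left out. Log2 ratios used RPKM + 1 and genes at 1 RPKM or more in either library, a scale on which low genes appear to differ less. The text names every member, genes on the same coordinates, the nearest listed loci within 50 kb and the 3 genes of most similar pattern for members at least 2-fold apart, Rad23b and Xpc, and list genes at least 2-fold apart, with a few others chosen after their values were seen. Members and gene lists were chosen with earlier results of these data known. Some list genes were not found under the symbols used (Ube2g2, Vimp, Sox1), and 2 further genes of the shuttle family list are not reported here. Ufd1l and Ubl4 were each searched under 2 symbols and counted once. RefSeq promoters (GRCm38.p6) were matched by symbol. No test was possible on expression, and nothing says whether the ChIP replicates came from separate cultures. Computations used Python 3.11.15, numpy 2.4.6, pandas 2.3.3 and matplotlib 3.10.9. The counting by fold and the search for overlaps were checked on made-up input without added noise. That check covers the code and does not measure variation between libraries. Other settings were another pseudocount, fold limit, RPKM limit or centring, and for regions another distance, overlap, fold or single replicate.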

Additional observations from a re-analysis of the deposited data

How the results depend on the processing

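The log2 ratios of the 10 members in 3 comparisons moved by less than 0.22 under each of 3 alternatives (pseudocount of 0.1, pseudocount of 5, centring on the median of all genes). Of 30 alternative counts, 23 stayed within 1.5 times the main count. At a limit of 1.5-fold, 3 members in place of 1 were apart from wild type in the Rad23b-null and knockdown 1 comparisons. Among the 6 members with coordinates of their own, 0 were 2-fold apart in those comparisons and 1, Nploc4, in knockdown 2, so the Stub1 call rests on a merged locus. The members with a shared RAD23B region numbered between 7 and 10 under all alternatives tried, 9 in replicate 2 alone and 10 in replicate 1 alone. The count of 1 member in the Xpc-null list became 0 within 1 kb of the listed start and 0 at an authors' fold of at least 2. No paired analysis was possible because no result comes from a test. Single RNA libraries limit every expression value, and the lower depth of replicate 2 limits absence from its list.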

Other observations

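Genes on shared coordinates differed from the others in how the authors' deposited table called them. Of genes at least 2-fold apart from wild type in the Rad23b-null comparison, the authors' p was under 0.05 in 34% of the 770 with coordinates of their own and in 14.4% of the 637 on shared coordinates. In knockdown 1 the shares were 39.9% and 16.4%, and in knockdown 2 they were 38.6% and 15.2%. Stub1, at 13.9 times its wild-type level with a p of 0.861, is an instance among the shared ones. Psmc5, a proteasome ATPase gene on shared coordinates, stood at 219 RPKM in wild type and 110, 93.1 and 103 in the mutants, with p-values of 0.051, 0.012 and 0.025 in the authors' deposited table. It is an instance in the other direction, a gene on shared coordinates with a p under 0.05 in both knockdowns, and was chosen after its values were seen.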
